A study of Mus musculus with 4 samples.

Results

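The 10 genes described here encode enzymes that break down the branched-chain amino acids leucine, isoleucine and valine, and enzymes that burn ketone bodies: Bcat2, Bckdha, Bckdhb, Bckdk, Dbt, Ivd, Hibadh, Bdh1, Oxct1 and Acat1. They were taken from the array by symbol, through probe sets annotated to exactly 1 of these symbols. All 10 genes were found, with 18 probe sets, among 12393 genes and 22626 probe sets. A probe set is a group of short oligonucleotides on the array that together give 1 reading, and some probe sets match more than 1 transcript. Every probe set of a gene is shown, and the one of highest mean log2 signal represents the gene.

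Skeletal muscle is a main site of the first steps of branched-chain amino acid breakdown. A mitochondrial transaminase removes the amino group, and the resulting keto acids are oxidised by the branched-chain keto acid dehydrogenase complex, which a kinase inactivates by phosphorylation. Ketone bodies made by the liver enter muscle mitochondria, where 3-hydroxybutyrate is oxidised to acetoacetate, acetoacetate is activated to acetoacetyl-CoA, and a thiolase splits that into acetyl-CoA.

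The series measured RNA of gastrocnemius, a calf muscle, in mice of 6 weeks, on Affymetrix arrays. The controls are non-transgenic littermates, labelled wild-type. The other group, MCK-PPARb, overexpresses the nuclear receptor PPARbeta in muscle from a transgene. Each group has 2 arrays. MCK is the usual short form of muscle creatine kinase, whose promoter drives genes in striated muscle; the labels do not spell it out. No number of transgenic lines, strain or sex is given in the sources used here. The titles name biological replicates, while the design text leaves room for another reading, and p-values then cover only the spread between arrays, which may be technical.

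Values are signal intensities on a linear scale, scaled alike on all arrays by the authors. Ppard, which encodes PPARbeta, checked the labels: it read 2169 and 2825 in controls, against 126049 and 98797 with MCK-PPARb. The muscle fibre markers Acta1, Ckm, Mylpf, Tnnt3, Myh1, Myh2, Myh4 and Myh7, defining for the labelled tissue, were all above the filter on low signals. Control array 1 stood apart at the bright end, with 4.20% of its signal in 10 probe sets against 2.36% to 2.78% on the other arrays.

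Among the 10 genes, the 2 ends of the ketone pathway and 1 subunit of the keto acid dehydrogenase read higher in MCK-PPARb muscle, and the middle enzyme of the ketone pathway read lower. Bdh1 was at 2.01-fold, Bckdha at 1.96-fold and Acat1 at 1.70-fold of the control level, and Oxct1 was 1.37-fold lower. None of the 10 genes passed an adjusted p under 0.05 in limma, which was reached by 0.731% of the 6841 genes tested. At an unadjusted p under 0.05 there were 4 genes, 3 higher and 1 lower, where 10.9% of all genes tested had such a p. The groups did not overlap for 4 genes that were higher and 1 that was lower; over all genes tested, the shares were 22.2% and 20.8%. Of the 18 probe sets, 0 passed, where 0.601% of all did, and 10 had groups that did not overlap, 8 higher and 2 lower, where 41.1% of all did. The 8 include the dimmer probe set of Bdh1, which the filter kept only through its MCK-PPARb arrays. The median log2 difference of the 10 genes was 0.12 (0.0096 with median centring), against 0.011 over all genes tested (-0.095 with median centring), and the median size of the difference without its sign was 0.24 for both. The median of the 10 genes was 0.28 without control replicate 1, 0.24 without MCK-PPARb replicate 1 and 0.21 without MCK-PPARb replicate 2. These are RNA levels of whole muscle, in which fewer cells of a type and less RNA per cell cannot be told apart.

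**Figure D1:**
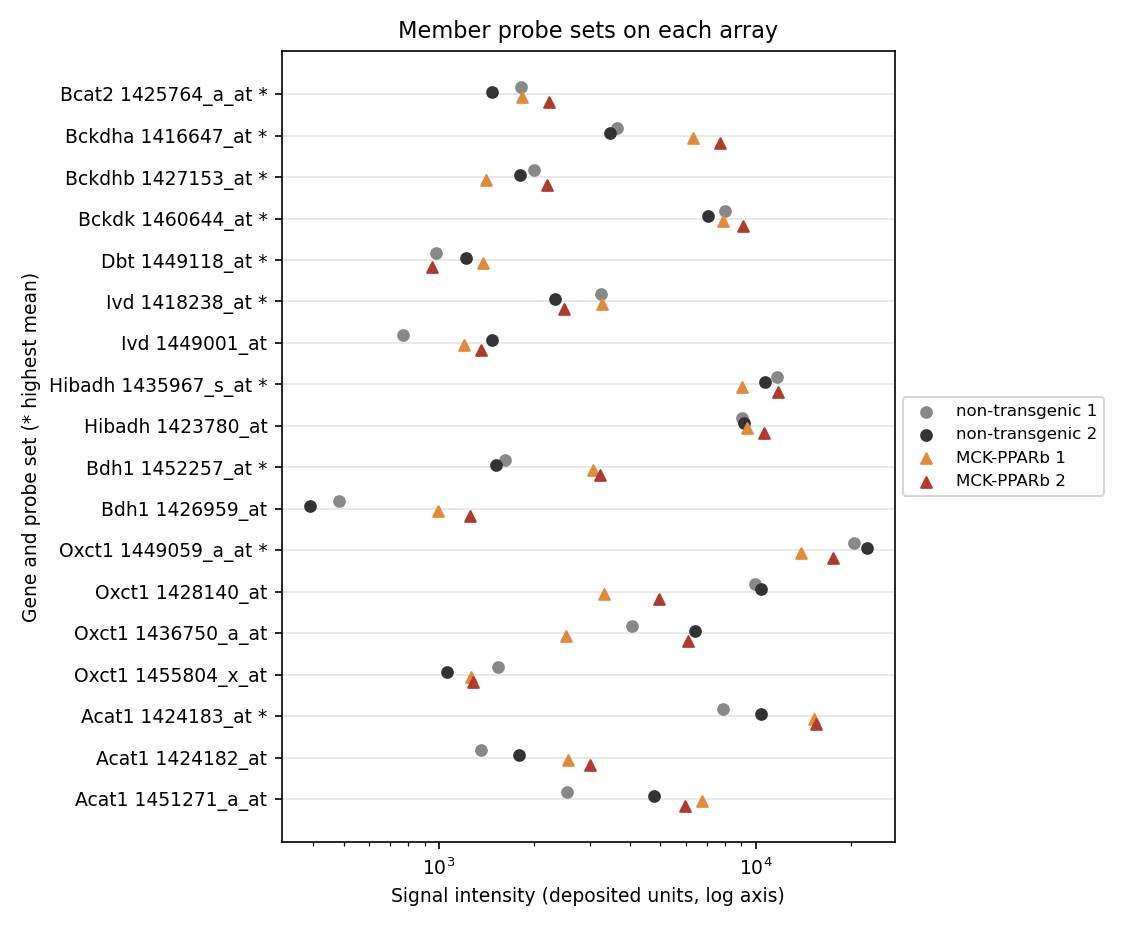
Signal intensity (log axis) of the 18 probe sets of the 10 genes, with 1 point per array: circles are the 2 control (non-transgenic) arrays and triangles the 2 MCK-PPARb arrays. Both triangles lie to the right of both circles for every probe set of Bckdha, Bdh1 and Acat1, and to the left for 2 of the 4 probe sets of Oxct1. The dimmer Bdh1 probe set was kept by the filter only through its MCK-PPARb arrays.

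Bcat2 encodes the mitochondrial branched-chain aminotransferase, which moves the amino group of leucine, isoleucine or valine onto 2-oxoglutarate. It read 1815 and 1471 on the control arrays, against 1826 and 2231 with MCK-PPARb. The lower MCK-PPARb array lay just above the higher control one. The log2 difference was 0.30 ± 0.24 (SE, n = 2 per group, limma adjusted p = 0.726), with a 95% interval of -0.27 to 0.88.

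The keto acid dehydrogenase complex is built from the E1 subunits encoded by Bckdha and Bckdhb, the E2 acyltransferase encoded by Dbt and the E3 subunit encoded by Dld. Bckdha, the E1 alpha subunit, which carries the residue that the kinase phosphorylates, read 3656 and 3465 on the control arrays, against 6321 and 7722 with MCK-PPARb. The groups were well apart. Its log2 difference was 0.97 ± 0.20 (SE, n = 2 per group, 95% interval 0.51 to 1.44), and it did not pass over all genes (adjusted p = 0.106 with limma, unadjusted p = 0.00148). By the size of the difference it ranked 261st of 6841 genes.

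Bckdhb, the E1 beta subunit, read 1997 and 1798 against 1405 and 2190.4. The MCK-PPARb arrays lay on both sides of the control ones, at a log2 difference of -0.11 (95% interval -0.76 to 0.54). Dbt read 979.6 and 1219.9 against 1374.5 and 947.5, again with overlapping groups, at 0.062 (95% interval -0.64 to 0.76). Dld, whose E3 subunit also serves pyruvate and 2-oxoglutarate dehydrogenase, read 4325 and 6699.6 against 3760.3 and 3980.0, at -0.48 (95% interval -1.06 to 0.10, adjusted p = 0.562 with limma). Both MCK-PPARb arrays were below both control arrays for Dld, but its difference was -0.16 without control replicate 2 and -0.79 without control replicate 1. Bckdha is the subunit of the 4 whose interval lies on 1 side of 0.

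Within an array, the log2 ratio of Bckdha to Bckdhb was 0.87 and 0.95 in controls, against 2.17 and 1.82 with MCK-PPARb. This ratio was chosen after the values were seen; it differed by 1.08 between the groups, and the exact permutation test (two-sided) gave p = 0.333, the smallest that 2 arrays against 2 allow.

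Bckdk encodes the kinase that switches the complex off. It read 8009.6 and 7054 on the control arrays, against 7866 and 9080.1 with MCK-PPARb, with overlapping groups. The log2 difference was 0.17 ± 0.19 (SE, n = 2 per group, limma adjusted p = 0.815), with a 95% interval of -0.27 to 0.61. The log2 ratio of Bckdk to the mean of Bckdha, Bckdhb and Dbt was 2.06 and 1.84 in controls, against 1.77 and 1.85 with MCK-PPARb. The groups overlapped, with a difference of -0.14 (exact permutation test, two-sided, p = 0.667, n = 2 per group).

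The sequences before the annotated starts of both E1 genes are shown because the genes encode partner subunits whose differences are given above. They are the 250 bases before the start, from RefSeq on GRCm38.p6, 5′ to 3′ on the strand of the gene. Capitals mark the nuclear receptor hexamer AGGTCA, searched on both strands.
Bckdha, chr7:25658762-25659011, minus strand: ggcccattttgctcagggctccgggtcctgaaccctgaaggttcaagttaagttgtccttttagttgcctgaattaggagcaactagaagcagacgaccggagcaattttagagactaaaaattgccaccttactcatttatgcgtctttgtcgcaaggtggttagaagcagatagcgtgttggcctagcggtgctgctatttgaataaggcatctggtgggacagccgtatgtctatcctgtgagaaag
Bckdhb, chr9:83924887-83925136, plus strand, the first of 2 starts: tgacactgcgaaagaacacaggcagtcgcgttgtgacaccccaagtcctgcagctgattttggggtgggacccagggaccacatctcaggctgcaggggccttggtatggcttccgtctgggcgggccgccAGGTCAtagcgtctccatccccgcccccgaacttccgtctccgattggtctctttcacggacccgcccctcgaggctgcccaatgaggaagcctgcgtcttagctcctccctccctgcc
The Bckdha window holds 47.6% G and C and 8 CG pairs, and the Bckdhb window 63.2% and 15. The hexamer of Bckdhb begins 119 bases before the start. No hexamer was found in this window of Bckdha.

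After the dehydrogenase, the pathways of the 3 amino acids part. Ivd encodes isovaleryl-CoA dehydrogenase, the next step for leucine. Its brighter probe set read 3241 and 2315 against 3258 and 2481, nearly the same pair of values in each group, at a log2 difference of 0.054 (95% interval -0.55 to 0.66). The other read 769.7 and 1468 against 1198 and 1354, where the spread of the control arrays took in both MCK-PPARb arrays, at 0.26 (95% interval -0.56 to 1.08).

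Hibadh encodes 3-hydroxyisobutyrate dehydrogenase, a late step for valine. Its brighter probe set, 1435967_s_at, read 11647 and 10656 against 9054 and 11745, at -0.11 (95% interval -0.58 to 0.36). The other, 1423780_at, read 9012 and 9155 against 9410.2 and 10620.1, at 0.14 (95% interval -0.28 to 0.56). The 2 probe sets differ in sign, and both intervals span 0. For 1423780_at both MCK-PPARb arrays were above both control arrays, while the groups of 1435967_s_at overlapped.

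Bdh1 encodes 3-hydroxybutyrate dehydrogenase of mitochondria, which turns 3-hydroxybutyrate into acetoacetate. Its brighter probe set read 1615 and 1512 on the control arrays, against 3064 and 3226 with MCK-PPARb. The gap between the groups was many times the gap within either. The log2 difference was 1.01 ± 0.21 (SE, n = 2 per group, 95% interval 0.51 to 1.50), with an adjusted p of 0.114 in limma and an unadjusted p of 0.00175. The dimmer probe set, at 484 and 391 against 990.4 and 1252, had a difference of 1.36 ± 0.32 (adjusted p = 0.159 with limma). Its control mean of 435 was below the filter level of 444 signal units. It was kept only because its MCK-PPARb arrays were high, so it is no further support for Bdh1, and its size is less certain. A difference at least as high as that of the brighter probe set was seen for 1.89% of the genes tested.

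Oxct1 encodes the CoA transferase that activates acetoacetate, the step that commits a ketone body to oxidation. It has 4 probe sets, and they do not give 1 value. The brightest, 1449059_a_at, read 20479 and 22408 on the control arrays, against 13849 and 17537 with MCK-PPARb, at -0.46 ± 0.19 on the log2 scale (SE, n = 2 per group, 95% interval -0.91 to -0.0036, adjusted p = 0.470 with limma). The groups did not overlap, yet 22.7% of the genes tested had a difference of greater size.

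The probe set 1428140_at of Oxct1 read 9941 and 10386 against 3321 and 4929, 2.51-fold lower. Its difference of -1.33 ± 0.23 in log2 (SE, n = 2 per group, 95% interval -1.87 to -0.79) had the smallest p of the 18 probe sets (adjusted p = 0.0699 with limma). It passed with median centring (adjusted p = 0.0323 with limma) and with a filter at the 75th percentile of signal (0.0428). It also passed with the replicate number added as a block (0.00195) and at a threshold of 0.1. Under the other settings on all 4 arrays it did not pass, with the largest adjusted p without the intensity trend (0.226 with limma). With 1 array left out, its difference ranged from -1.61 to -1.04. The probe set 1436750_a_at read 4064 and 6419 against 2519.6 and 6085, with overlapping groups and a difference of -0.38, which without MCK-PPARb replicate 1 was 0.25. The probe set 1455804_x_at read 1529.7 and 1057 against 1258 and 1282, at -0.0023 (95% interval -0.65 to 0.65); the suffix _x_at marks probes that may also match other transcripts.

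Within an array, the log2 ratio of 1428140_at to 1449059_a_at was -1.04 and -1.11 on the control arrays, against -2.06 and -1.83 with MCK-PPARb, a difference of -0.87 chosen after the values were seen. The exact permutation test (two-sided) gave its smallest possible p of 0.333. Which transcripts each of these 2 probe sets reports was not analysed here.

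Acat1 encodes the mitochondrial acetoacetyl-CoA thiolase, which ends ketone body use and also serves isoleucine breakdown. Its brightest probe set read 7867 and 10366 on the control arrays, against 15236 and 15433 with MCK-PPARb. The log2 difference was 0.76 ± 0.20 (SE, n = 2 per group, 95% interval 0.30 to 1.23, adjusted p = 0.209 with limma). The other 2 probe sets read 1359 and 1794 against 2559.5 and 2988, and 2532.5 and 4773.5 against 6779 and 5969.9, with differences of 0.82 and 0.87. All 3 had non-overlapping groups in the same direction, where 41.1% of all probe sets tested had non-overlapping groups in either direction. The 3 read 1 gene on the same 4 arrays, so they are not independent of each other. The difference of 1451271_a_at was 1.33 without control replicate 2 and 0.41 without control replicate 1.

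**Figure D2:**
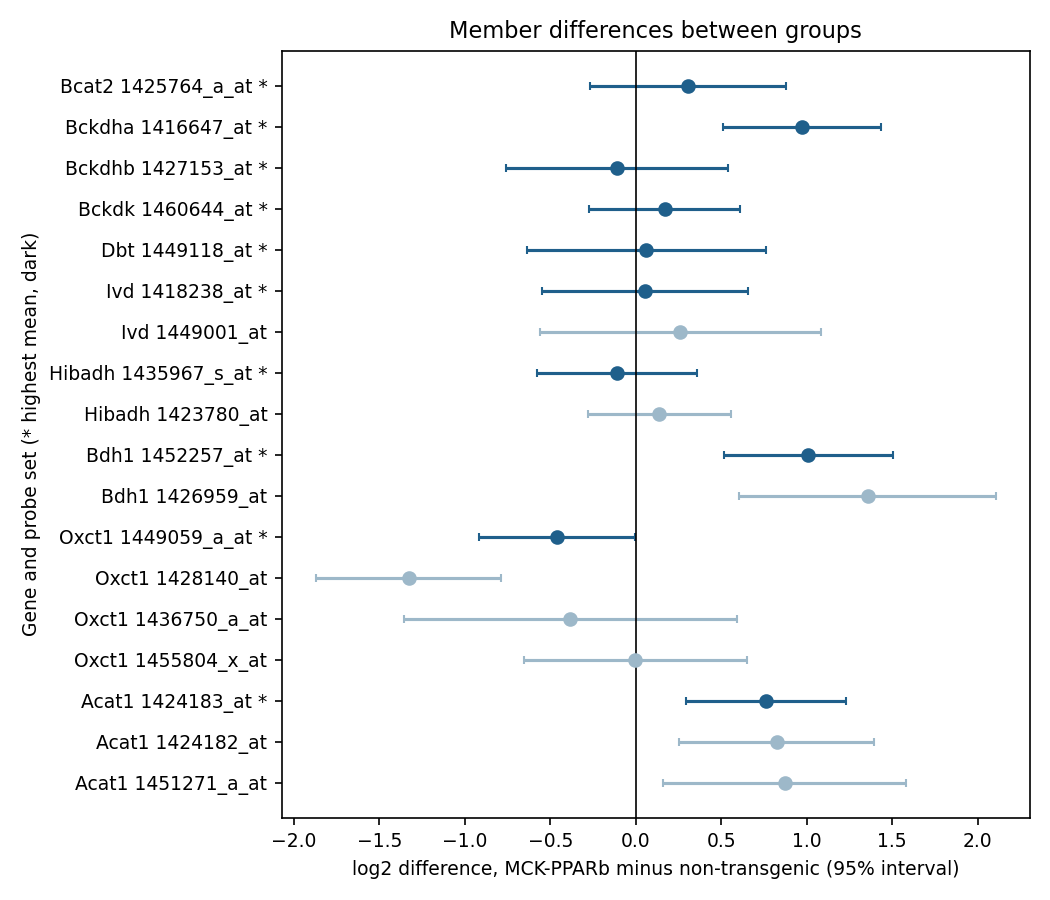
Log2 difference of each of the 18 probe sets, MCK-PPARb minus non-transgenic, with its 95% interval from limma; dark points are the probe sets of highest mean. The intervals of all probe sets of Bckdha, Bdh1 and Acat1 lie above 0, and that of the Oxct1 probe set 1428140_at, at -1.33, lies farthest below it. The dimmer Bdh1 probe set was kept by the filter only through its MCK-PPARb arrays.

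For the steps of ketone body use side by side, none of the 3 genes passed. The log2 ratio of Bdh1 to Oxct1, each by its brightest probe set, was -3.66 and -3.89 in controls, against -2.18 and -2.44 with MCK-PPARb, a difference of 1.47. The ratio of Acat1 to Oxct1 differed by 1.22. Both ratios were chosen after the values were seen, and the exact permutation test (two-sided) gave p = 0.333 for each, its smallest possible value with n = 2 per group.

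The windows before the starts of Bdh1 and Oxct1 are shown because these enzymes catalyse successive steps and their differences have opposite signs. They are given as above, from RefSeq on GRCm38.p6, and hold none of the motifs searched.
Bdh1, chr16:31422047-31422296, plus strand, the first of 2 starts: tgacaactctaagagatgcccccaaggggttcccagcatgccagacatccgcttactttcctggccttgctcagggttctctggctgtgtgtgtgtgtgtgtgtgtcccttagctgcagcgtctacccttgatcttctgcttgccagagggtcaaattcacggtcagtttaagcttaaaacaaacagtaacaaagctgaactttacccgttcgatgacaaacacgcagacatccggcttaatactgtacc
Bdh1, chr16:31428503-31428752, plus strand, the second start: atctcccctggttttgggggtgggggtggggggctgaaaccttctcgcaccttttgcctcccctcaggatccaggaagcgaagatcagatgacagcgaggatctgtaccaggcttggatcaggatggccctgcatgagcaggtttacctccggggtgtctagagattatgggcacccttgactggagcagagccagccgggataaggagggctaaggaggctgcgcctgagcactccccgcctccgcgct
Oxct1, chr15:4026178-4026427, plus strand: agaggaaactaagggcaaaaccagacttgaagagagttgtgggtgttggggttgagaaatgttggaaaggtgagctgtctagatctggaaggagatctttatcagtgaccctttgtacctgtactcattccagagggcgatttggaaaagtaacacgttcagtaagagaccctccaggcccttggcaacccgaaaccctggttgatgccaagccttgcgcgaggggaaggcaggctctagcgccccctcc
In all, 8 of the 10 genes had an entry, with 11 starts; Acat1 and Dbt were not analysed here. The motifs were searched on both strands of 300 bases, 250 before the start and 50 after. The hexamer AGGTCA was in 2 of the 11 windows, those of Bckdhb and Hibadh, and in 16.3% of all 32851 windows. The direct repeat AGGTCANAGGTCA, to which PPAR binds as a dimer with RXR, was in 0 of the 11 and in 0.0396% of all. With the T of each hexamer free, AGGNCANAGGNCA, it was in 0 and in 0.381%. The extended hexamer TCAAGGTCA of the estrogen-related receptors was in 0 and in 0.423%. The hexamer is contained in the exact direct repeat and in the extended hexamer, and no match says only that these letters are not in the window.

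The other genes of branched-chain amino acid use were taken from a list of 25, of which 22 were analysed here and 19 above the filter. None of the 19 passed an adjusted p under 0.05 in limma, 1 had an unadjusted p under 0.05, and their median log2 difference was -0.032, with a range of -0.12 to 0.024 when 1 array was left out. The 1 gene was Hadha, the alpha subunit of the trifunctional protein of fatty acid oxidation, at 12515 and 12213 against 20314 and 21460.0 (log2 0.76 ± 0.17, adjusted p = 0.143 with limma). Its partner Hadhb, at 16490.4 and 19032 against 16743 and 19066, differed by 0.012. The dimmer probe set of Hadhb was at 0.28 with overlapping groups. The carboxylase subunit genes Mccc1 and Mccc2 of leucine breakdown were at 0.33 and 0.45, with intervals that span 0.

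Around the Hibadh step and further along, no gene passed, and the differences had both signs. Hibch, which releases 3-hydroxyisobutyrate just before the Hibadh step, was at 2929 and 2988 against 2139 and 2345 (log2 -0.40, adjusted p = 0.556 with limma). Aldh6a1, which acts just after Hibadh, was at 3267 and 3281 against 2692 and 2648 (-0.29). Pcca, a subunit of propionyl-CoA carboxylase, was at 3321 and 3782 against 2094 and 2905 (-0.52), and its partner Pccb was at -0.12. Acadsb, the short branched-chain acyl-CoA dehydrogenase of isoleucine breakdown, was at -0.44 with overlapping groups. Hsd17b10, which oxidises a later intermediate of isoleucine, was at 0.53 with overlapping groups. Its dimmer probe set, 1438391_x_at, was at 0.36 with groups that did not overlap and an interval that spans 0. Echs1, an enoyl-CoA hydratase, was at 0.086 and Acad8, the isobutyryl-CoA dehydrogenase of valine breakdown, at -0.032. Of the 19 genes of the list, 4 had both MCK-PPARb arrays above both control arrays (Hadha, Mccc2, Klf15 and Echs1) and 4 had both below (Pcca, Dld, Hibch and Aldh6a1), near the shares of 22.2% and 20.8% over all genes tested.

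Among regulators and carriers, Klf15, a transcription factor known to control amino acid breakdown in muscle, read 1031 and 1039.7 against 1136 and 1378, at 0.27 (95% interval -0.34 to 0.88). Slc25a44, the mitochondrial carrier of branched-chain amino acids, had 3 probe sets above the filter, at 0.064, -0.068 and 0.94. The last, 1456465_at, read 722 and 431 against 1099.8 and 1035, and did not pass (adjusted p = 0.387 with limma). Bcat1, the cytosolic aminotransferase, was below the filter, at 234 and 304 against 549.6 and 275.

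**Figure D3:**
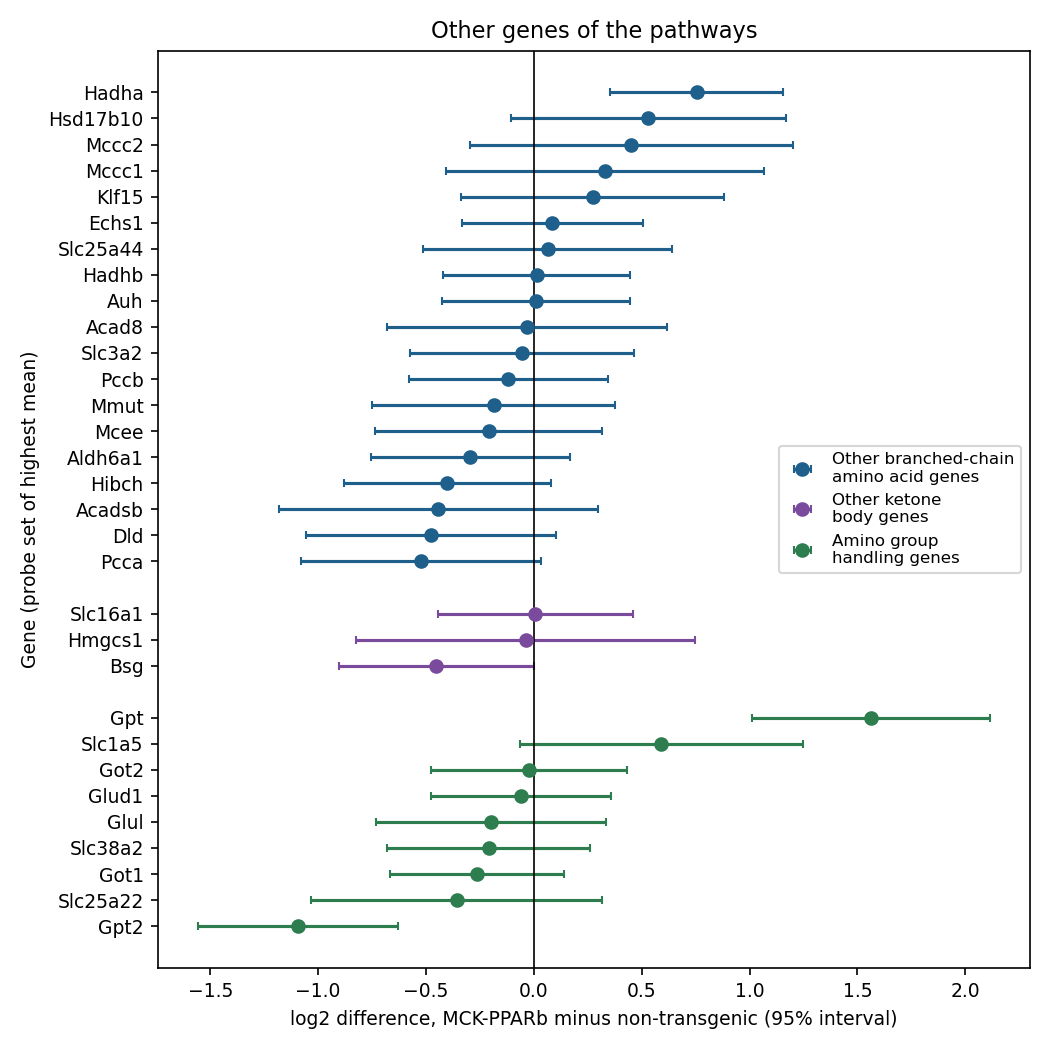
Log2 difference, MCK-PPARb minus non-transgenic, with its 95% interval, for the 31 other pathway genes above the filter, each by its probe set of highest mean, grouped by list. Gpt at 1.56 and Gpt2 at -1.09 mark the ends of the scale, and most other intervals span 0.

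Of 13 other ketone body genes, 7 were analysed here and 3 above the filter. None passed in limma, 1 had an unadjusted p under 0.05, and their median difference was -0.037, which was -0.28 without control replicate 1 and 0.063 without control replicate 2. Slc16a1, which encodes the monocarboxylate transporter MCT1 that carries ketone bodies and lactate into cells, read 3689.7 and 3995 against 3714 and 4002, at 0.0060 (95% interval -0.45 to 0.46). Bsg, the chaperone that brings MCT1 to the membrane, read 38739 and 30649.8 against 25601 and 24748 (-0.45, adjusted p = 0.470 with limma). Hmgcs1, the cytosolic synthase of the cholesterol pathway, was at -0.037 with 4 probe sets of differing sign.

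The amino group that Bcat2 removes ends up on glutamate and from there on alanine or glutamine, for export from muscle. Of 10 genes of this step, 9 were analysed, all above the filter: 1 rose, none fell and 8 did not pass, with a median log2 difference of -0.20, which was -0.034 without control replicate 1 and -0.055 without MCK-PPARb replicate 2. Gpt, which encodes the cytosolic alanine aminotransferase, rose from 1357 and 1036 to 3535 and 3476, 2.96-fold (log2 1.56 ± 0.24, SE, n = 2 per group, limma adjusted p = 0.0429). This rests on a single probe set, 1426502_s_at, so Gpt has no value where probe sets ending in _s_at or _x_at are dropped. Genes called higher were 0.409% of those tested. The call was lost without MCK-PPARb replicate 1 (adjusted p = 0.148 with limma) or 2 (0.162) and without the intensity trend (0.135), and the adjusted p spanned 0.00125 to 0.162 across all settings.

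Gpt2, the mitochondrial alanine aminotransferase, read lower in MCK-PPARb muscle on each of its 3 probe sets. The brightest read 10381 and 8367 against 4572 and 4169 (log2 -1.09 ± 0.20, adjusted p = 0.0825 with limma), and the other 2 were at -1.13 and -1.18. The brightest passed with median centring (adjusted p = 0.0387 with limma) and with a filter at the 75th percentile (0.0481). It also passed with the replicate number added as a block (0.00616) and at a threshold of 0.1. With 1 array left out, its difference ranged from -1.25 to -0.94. The log2 ratio of Gpt to Gpt2 was -2.94 and -3.01 in controls, against -0.37 and -0.26 with MCK-PPARb, a difference of 2.66 chosen after the values were seen (exact permutation test, two-sided, p = 0.333, the smallest possible, n = 2 per group).

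Of the remaining genes of this step, Slc1a5, a glutamine transporter, read 669 and 671 against 981 and 1038, at 0.59 (95% interval -0.065 to 1.25). Glul, glutamine synthetase, had 2 probe sets of opposite sign, at -0.20 and 0.31. The aspartate aminotransferase genes Got1 and Got2 were at -0.27 and -0.024, and Glud1, glutamate dehydrogenase, was at -0.058. The dimmer probe sets of Got2 and Glud1 were at -0.23 and -0.24. For each of these, both MCK-PPARb arrays were below both control arrays, with an interval that spans 0.

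Markers of other cells in the muscle were set beside these values. The summed signal of the Schwann cell markers, 4 of 7 analysed here, was 17788 and 19655 on the control arrays, against 30000.5 and 33770.3 with MCK-PPARb, with S100b below the filter. That of the adipocyte markers, 6 of 8, was 9611 and 14422 against 12533 and 12434, with Pparg, Lep and Cidec below the filter, Adipoq at a log2 difference of 1.03, Retn at 1.02 and Fabp4 at -0.23. Macrophage markers, 4 of 4, summed to 5407 and 4882 against 6410.4 and 5696.5. The sums of endothelial and fibroblast markers, 4 of 4 each, overlapped between groups, as did those of the 8 muscle fibre and 2 of 3 erythroid markers. No marker was at 0. The part of these cells in the values of Bckdha, Bdh1, Acat1, Oxct1 and Gpt was not tested.

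**Figure D4:**
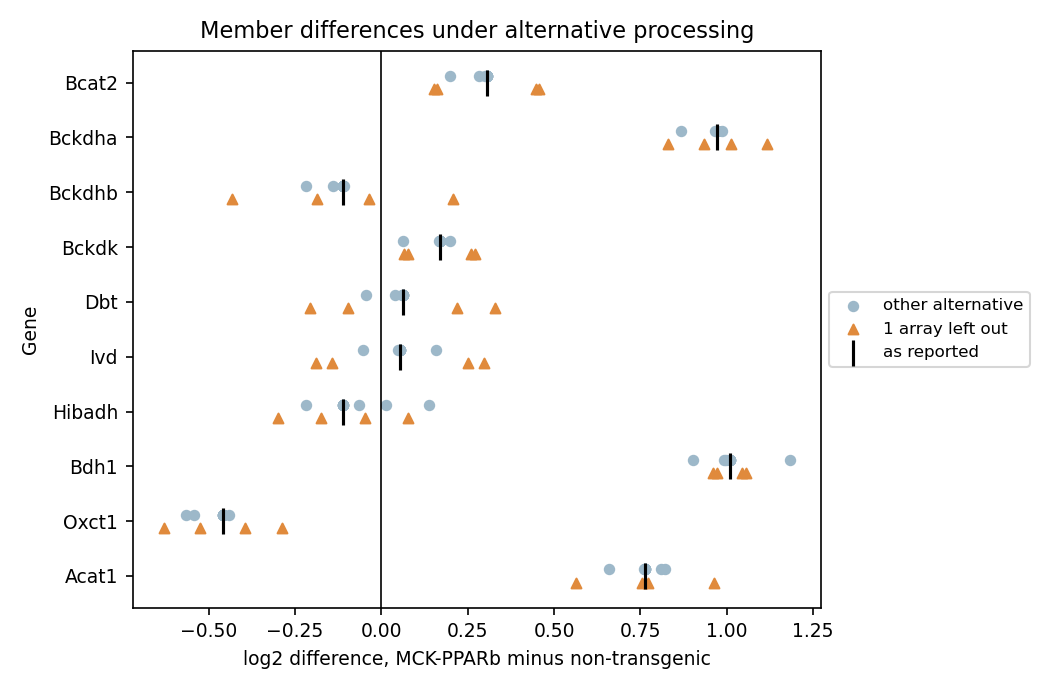
Log2 difference of each of the 10 genes, MCK-PPARb minus non-transgenic, as reported (black bar), with 1 array left out (triangles) and under the other alternatives (circles). Bckdha stayed between 0.83 and 1.12, Bdh1 between 0.90 and 1.18, Acat1 between 0.56 and 0.96 and Oxct1 between -0.63 and -0.29, while Bckdhb, Dbt, Ivd and Hibadh lie on both sides of 0.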

How the data were processed

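The authors deposited signal intensity values, linear and 1 per probe set and array. The submitters' processing notes name MAS5 and GCOS, whose versions are not stated there. The values show that arrays had been scaled: the mean without 2% of probe sets at each end was 1501 on all 4. Here 64 control probe sets were left out, and symbols came from the platform annotation, updated by gene number for 20351 of 20380 probe sets with 1 symbol. No pseudocount was added before taking log2. Probe sets whose mean exceeded the median of all, 444 signal units, were kept: 11313, for 6841 genes. The comparison used limma 3.58.1 in R 4.3.3 (lmFit, eBayes with an intensity trend, two-sided, 5.38 prior and 2 residual degrees of freedom), with Benjamini-Hochberg adjustment over all kept probe sets and a call at adjusted p under 0.05. The same fit was tested on simulated data. A fold is 2 to the power of the log2 difference. The number of arrays limits the precision.

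Genes and lists were chosen with earlier results of these data known. All 10 genes are named, as are Ppard, of each other list the called genes and the 3 of smallest p, and Bcat1, Dld, Acadsb, Hibch, Aldh6a1, Slc16a1, Slc25a44, Klf15, Gpt2 and Glul in any case. Genes beyond this rule (Hadhb, Auh, Hsd17b10, Echs1, Acad8, Mccc1, Mccc2, Pccb, Got1, Got2, Glud1 and the marker genes) were named after their values were seen. Mcee, Mmut, Slc3a2, Slc25a22 and Slc38a2 were tested and are in the counts and medians of their lists, without a value given in the text. Some listed genes, such as the phosphatase gene Ppm1k, and the planned ratio of Bckdk to it, were not analysed here. Promoter windows came from RefSeq tables of GRCm38.p6.

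As alternatives, arrays were normalized by quantiles or centred on their medians, a pseudocount of 33.9 (the 10th percentile of signals) was added, the filter was dropped or raised to the 75th percentile, eBayes was run robustly or with no trend, the replicate number was added as a block, and each array was left out. The threshold was also set to 0.1, probe sets ending in _s_at or _x_at were dropped, and probe sets of a gene were averaged.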

Additional observations from a re-analysis of the deposited data

How the results depend on the processing

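In 15 alternatives, 432 of 475 recomputed differences of the named genes and probe sets kept their direction and their side of the threshold. Bckdha, Bdh1, Acat1 and the brightest probe set of Oxct1 kept their direction in each, which leaving out an array cannot turn where groups do not overlap. Changing the filter, the eBayes fit, the block or the threshold leaves the difference of a probe set as it was. Under those settings direction was fixed in advance, and only the side of the threshold could change. Median centring moved the median difference of all genes by -0.11 and the split of called genes from 28 higher and 22 lower to 33 and 41; quantile normalization gave 38 and 26. The numbers of genes called were 14 without the intensity trend, 218 with a replicate block and 102 at an adjusted p under 0.1, and 26 to 105 with 1 array left out, against 50. Of the amino group genes, 2 were called with median centring, with the filter at the 75th percentile, with the replicate block and at an adjusted p under 0.1, 0 without the trend and without _s_at and _x_at probe sets (where Gpt has no value), and 0 to 2 with 1 array left out.

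The arrays share replicate numbers across groups, with nothing in the labels to pair the mice; deviations of same-numbered arrays correlated at 0.28. With the replicate block, which leaves 1 residual degree of freedom, 218 of the 6841 genes tested were called, against 50 without it. Of the 10 genes 2 were called, both higher: Bckdha (adjusted p = 0.0175 with limma) and Bdh1 (0.0244). The Oxct1 probe set 1428140_at was called lower (0.00195), and the dimmer Bdh1 probe set higher (0.0362). That Bdh1 probe set was kept by the filter only through its MCK-PPARb arrays. The block also called 1 other branched-chain gene, Hadha, and of the amino group genes Gpt, higher, and Gpt2, lower.

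Directions that turned belonged to differences that did not pass, of which the largest in size was -0.38, for the Oxct1 probe set 1436750_a_at. With median centring these were Dbt (-0.044), Ivd (-0.052), Slc16a1 (-0.10) and Slc25a44 (-0.041). Without _s_at and _x_at probe sets they were Hibadh (0.14) and Hmgcs1 (0.020), and with the probe sets of each gene averaged Hibadh (0.013), Hmgcs1 (0.13) and Glul (0.057). With 1 array left out, the ranges were -0.43 to 0.21 for Bckdhb, -0.21 to 0.33 for Dbt, -0.19 to 0.30 for Ivd, -0.20 to 0.73 for its probe set 1449001_at, -0.30 to 0.076 for Hibadh, -1.02 to 0.25 for the Oxct1 probe set 1436750_a_at, -0.27 to 0.26 for 1455804_x_at, -0.53 to 0.45 for Hmgcs1, -0.051 to 0.063 for Slc16a1, -0.40 to 0.0012 for Glul and -0.049 to 0.18 for Slc25a44. The cause was not tested.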

Other observations

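Below the filter, 16 probe sets of the other pathway genes were set aside, and 4 of them had both MCK-PPARb arrays above both control (non-transgenic) arrays; among all probe sets below the filter the share was 19.1%. 2 of these belong to Auh, which encodes the hydratase of leucine breakdown. The probe set 1430487_at read 26.4 and 15.3 in controls, against 205 and 88.3 with MCK-PPARb, and 1447952_at read 32.5 and 32.1 against 141.0 and 184. The bright probe set of the same gene, 1420776_a_at, read 5727 and 5106 against 5335.5 and 5557, at a log2 difference of 0.0099 (95% interval -0.43 to 0.45). Hibch showed a like pair: 1451511_at, below the filter, read 18.7 and 138 against 186 and 167, while its bright probe set was at -0.40 on the log2 scale. What the dim probe sets report was not analysed here.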
